A study of Homo sapiens with 24 samples.

Results

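The comparison described here sets the RNA of SH-SY5Y cells treated for 24 h with TEPA, the pentahydrochloride salt of a linear polyamine, against that of SH-SY5Y cells treated for 24 h with dextran-catechin (DC), both without interferon gamma (IFN). Its members are the 3 TEPA and 3 DC libraries without IFN, 6 of the 24 libraries of the series, chosen by their column names in the count table. SH-SY5Y is an established human neuroblastoma cell line, and the study used it to examine how copper inside tumour cells affects them. The other 24 h groups used beside them are 3 untreated control libraries, and 3 libraries each of DC with IFN and of TEPA with IFN. No group carries a genetic change according to the labels. The labels give no doses. Nor do they state that replicates were separate cultures. The p-values rest on the spread between libraries within groups, estimated over all 24 libraries of the series, and this spread may be technical. That estimate also takes in the groups with IFN alone, untreated at 4 h and with copper for 4 h.

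Both compounds bind copper. The polyamine of TEPA holds metal ions with its nitrogen atoms, and it belongs to a group of chelators that also bind zinc and other divalent metals. Catechin is a plant flavonoid with catechol groups, here coupled to the polysaccharide dextran, and catechols undergo redox reactions. Cells read such exposures through transcription factors. NRF2 is released from KEAP1 by electrophiles and oxidants and drives antioxidant genes. MTF1 is activated by zinc and drives metallothioneins and the zinc exporter SLC30A1. p53 drives cell cycle arrest, repair and death receptor genes, and SREBP2 drives cholesterol synthesis when sterols are low.

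The 6 libraries held 27469521 to 35372442 counts, with 16442 to 16922 genes detected. The libraries numbered 2 of both groups stood apart from the other four on the first principal component, which carried 60.9% of the variance; DC and TEPA separated on the second, with 16.7%. The difference in level between GC-rich and GC-poor genes ran from -1.03 to 0.20 (log2) over the DC libraries and from -1.03 to 0.63 over the TEPA libraries, and was highest in library 2 of each group. Levels are given in CPM, the counts of a gene relative to its scaled library total. Markers of neuroblastoma cells were present in both groups: the 7 tested of 8 listed (among them PHOX2A, HAND2, GATA3, ISL1, DBH, CHGA) summed to 1310 to 1380 CPM in DC and 1330 to 1540 CPM in TEPA, while TH was not tested (1 count in the 6 libraries). Of the leukocyte markers 2 of 7 were tested, of endothelium 2 of 6 and of epithelium 1 of 6, with sums of at most 3.1 CPM; CD3E, CLDN5 and KRT5 were at 0 counts. None of these was called. Of the 8 Schwann cell markers 4 were tested, with no call, and FOXD3 was at 0. All 8 fibroblast markers were tested and summed to 697 to 880 CPM in DC and 762 to 1000 CPM in TEPA, with 1 call, ACTA2. The part of such cells in the results below was not tested.

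Of 14654 genes tested, 185 differed between TEPA and DC at an adjusted p under 0.05 (edgeR quasi-likelihood test, Benjamini-Hochberg), which is 1.26% of them. In TEPA 86 genes were higher (0.587%) and 99 lower (0.676%), and 42 of the 185 differed by 2-fold or more, 24 of them higher. Among the genes with calls, antioxidant genes and the cystine importer were lower in TEPA than in DC, p53 targets were higher, the zinc exporter SLC30A1 was lower while the zinc importer SLC39A10 was higher, and genes of cholesterol and fatty acid synthesis were lower. The median log2 fold change over all genes tested was 0.02. The 3 TEPA and 3 DC libraries did not overlap for any of the 185 calls. The same held for 1996 of all genes tested (13.6%). A lack of overlap, given for single genes below, therefore adds nothing to a call. The TEPA and DC libraries numbered 2 deviated together (r of 0.76 across genes), while TEPA 1 correlated more with DC 3 (0.59) than with DC 1 (0.12). With the replicate number as a block 772 genes were called over all libraries and 406 in a fit of the 6 libraries. Over all libraries the block fits, for each number, an effect shared by every group of a time point. That includes the groups with IFN, whose numbers did not pair. Without that block the 6 libraries alone gave 2 calls, NQO1 and SLC7A11, so no other call named below held there. Without the libraries numbered 2 of both groups 77 genes were called, 43 higher and 34 lower, of which 73 were among the 185. Leaving out a single library gave from 75 calls (without DC 1) to 207 (without TEPA 2), with 85 without TEPA 3, 106 without DC 3 and 113 without TEPA 1; 60 of the 185 genes were called in all 6 of these fits, and all 185 kept their direction.

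**Figure D1:**
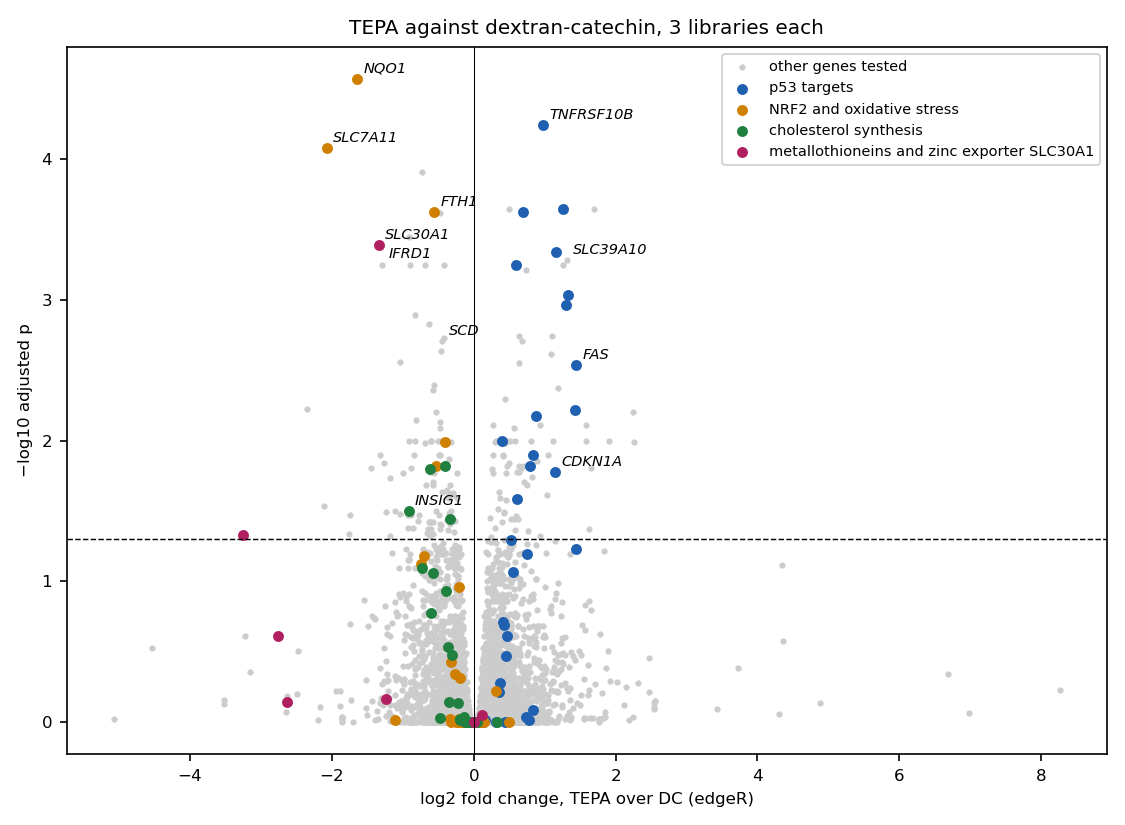
Each point is 1 of the 14654 genes tested, by its log2 fold change of TEPA over DC and the −log10 of its adjusted p; colours mark 4 gene lists and the dashed line marks an adjusted p of 0.05. The called p53 targets lie on the right, the called antioxidant, cholesterol and zinc exporter genes on the left.

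NQO1 and SLC7A11 were the calls that held in the 6 libraries alone. Positions are those of GENCODE 29 on GRCh38. NQO1 (chr16:69706996-69726951, minus strand) encodes a quinone reductase and is a standard readout of NRF2; SLC7A11 (chr4:138164097-138242349, minus strand) encodes the cystine importer that feeds glutathione synthesis and is also a target of ATF4. NQO1 was at 227, 198 and 213 CPM in the DC libraries and at 68.2, 68.1 and 68.6 CPM in the TEPA libraries. All TEPA libraries were below all DC libraries, and within each group the values lay close together. The log2 fold change of TEPA over DC was -1.64 (SE 0.15, adjusted p = 2.69e-05), which is 3.11-fold more in DC. SLC7A11 was at 62.6, 47.9 and 58.9 CPM in DC and at 14.2, 12.4 and 13.8 CPM in TEPA. Again the groups did not overlap. The fold change of TEPA over DC was -2.07 on the log2 scale (SE 0.22, adjusted p = 8.33e-05), 4.19-fold more in DC.

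The 24 h control lay between the compounds for both genes. NQO1 was at 91.1 CPM ± 6.15 (SD, n = 3) in the control, and SLC7A11 at 30.6 CPM ± 3.14 (SD, n = 3). Against that control NQO1 was called higher in DC (log2 fold change 1.22, adjusted p = 0.0022) and was -0.42 in TEPA (adjusted p = 0.271). For SLC7A11 the values were 0.88 in DC (adjusted p = 1) and -1.19 in TEPA (adjusted p = 0.00917). These 2 comparisons share the control libraries, so their values stand side by side only. DC against control had 2 calls among all genes tested (0.0136%), NQO1 and FTH1, both higher, and TEPA against control had 155 (1.06%); with the replicate block over all libraries these became 4 and 857.

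**Figure D2:**
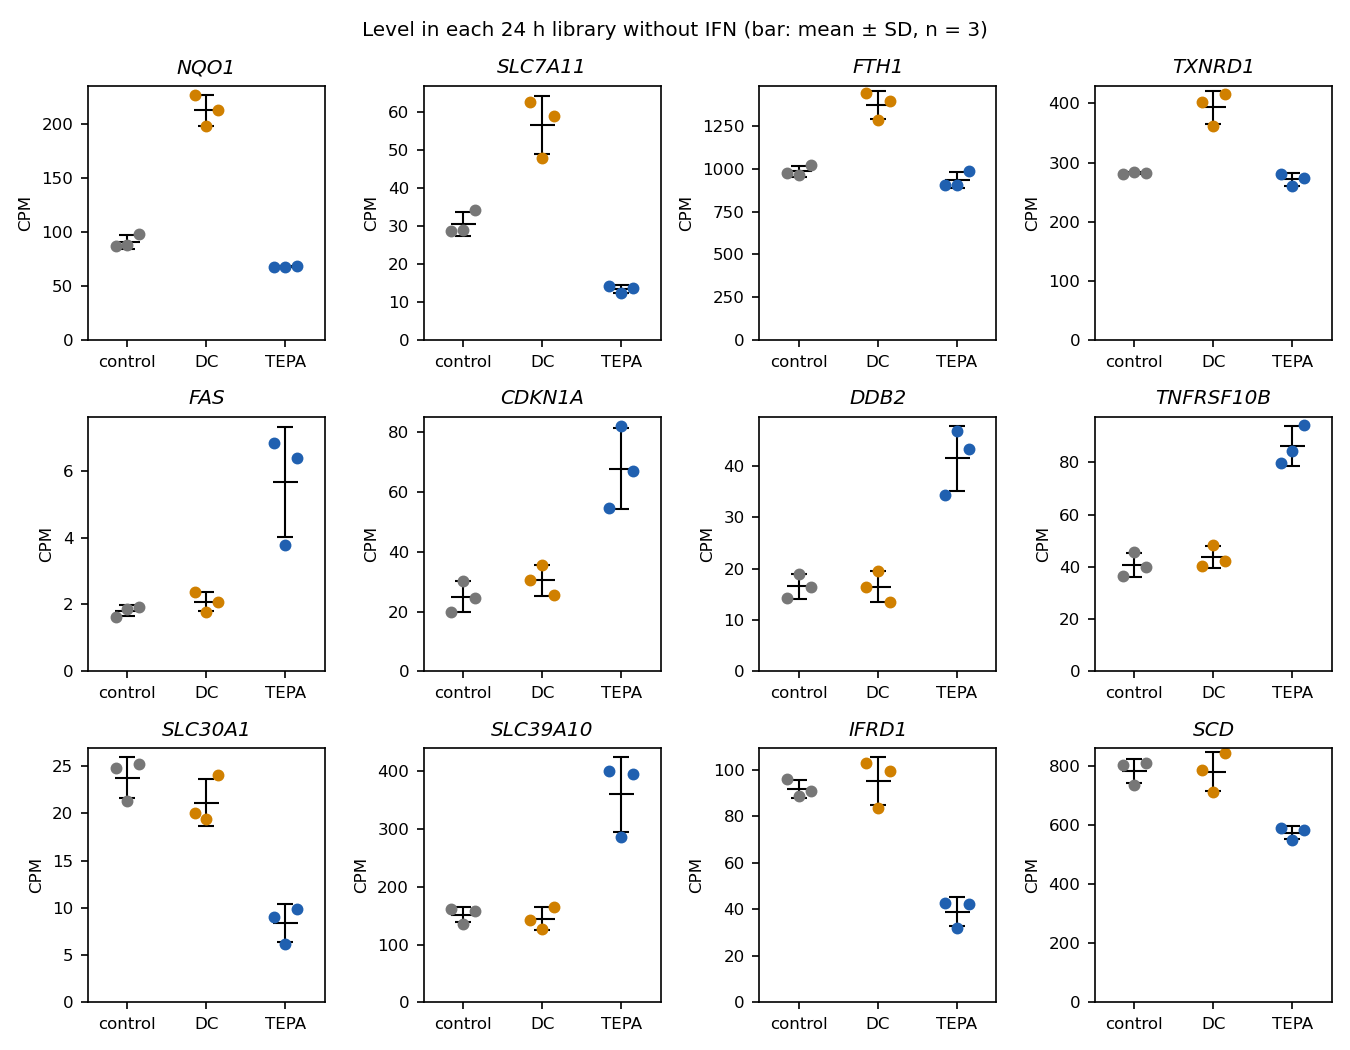
CPM of 12 genes in each 24 h library without IFN (points; library 1, 2 and 3 from left to right), with the mean and SD of 3 libraries; each axis starts at 0. For NQO1, SLC7A11, FTH1 and TXNRD1 the DC libraries are highest, and for the other 8 genes the TEPA libraries stand apart from both DC and control.

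Among 35 tested genes of an NRF2 and oxidative stress list, 5 were lower in TEPA than in DC and none higher, against 0.676% called lower over all genes; 27 of the 35 fold changes were below 0, with a median of -0.19 beside 0.02 over all genes. The number called lower was 9 with the replicate block over all libraries and 3 without the libraries numbered 2. Over all genes these fits called 400 and 34 lower. FTH1 encodes the ferritin heavy chain, which stores iron, and was at 1440, 1280 and 1390 CPM in DC and 906, 906 and 987 CPM in TEPA. The 2 groups were apart by more than their spread (log2 fold change -0.55, SE 0.07, adjusted p = 0.000238), and the control was at 985 CPM, near the TEPA libraries. TXNRD1, which keeps thioredoxin reduced, was at 402, 362 and 416 CPM in DC and 281, 260 and 274 CPM in TEPA (log2 fold change -0.53, SE 0.11, adjusted p = 0.0151). The control libraries at 281, 285 and 282 CPM sat at the level of the TEPA libraries. SRXN1, which repairs oxidized peroxiredoxins, was at 84.6, 85.4 and 78.6 CPM in DC and 62.6, 64.4 and 61.1 CPM in TEPA (log2 fold change -0.40, SE 0.08, adjusted p = 0.0103), with no overlap. GCLM, the regulatory subunit of the enzyme that starts glutathione synthesis, had a value of -0.74 on that scale (SE 0.20, adjusted p = 0.0755), with no overlap between groups. It was called with the replicate block (adjusted p = 0.000127 over all libraries) and with GC trends removed (4.28e-05). HMOX1, the haem-degrading enzyme that many oxidants raise, stayed near 1 CPM: 1.38, 1.7 and 0.706 CPM in DC and 0.809, 1.65 and 0.812 CPM in TEPA, which overlap (log2 fold change -0.21, 95% interval -1.01 to 0.60). Leaving out DC 1 ended the call of TXNRD1 (adjusted p = 0.0577), and leaving out DC 1, DC 2 or TEPA 3 ended that of SRXN1 (largest adjusted p = 0.0704), which was also lost with GC trends removed (adjusted p = 0.0861). Both calls were lost without the libraries numbered 2 (adjusted p = 0.0593 for TXNRD1 and 0.0717 for SRXN1). FTH1 shares 1267 exon bases with BEST1 on the other strand; the strand setting of the counting is not given in the sources used here.

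The medians of the NRF2 list against the control were 0.31 for DC and 0.03 for TEPA. Of 31 tested genes of cystine import and glutathione metabolism SLC7A11 was the single call, and the median was -0.01. In the aryl hydrocarbon receptor battery, which flavonoids can engage, NQO1 was the single call of 6 tested genes. Over all genes 1.26% were called. CYP1B1 was at 7.71, 6.28 and 9.15 CPM in DC and 6.76, 5.57 and 6.79 CPM in TEPA, values that overlap (log2 fold change -0.27, adjusted p = 0.823), and CYP1A1 was too low to test, with 16 counts in DC and 8 in TEPA.

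Promoters are shown for 2 antioxidant genes to let the letters near the start be seen beside the levels. The core of the antioxidant response element was searched as TGACNNNGC on both strands in RefSeq promoters (GRCh38.p14, 250 bases before to 50 after the start); 14.9% of the 10804 tested genes with such a promoter held it, and 6 of 26 members of the NRF2 list (GCLM, TXNRD1, ME1, PGD, ABCC4 and PIR). Capitals mark the matches. TXNRD1 (chr12:104215529-104215828, plus strand) held 2 matches, and GCLM (chr1:93909381-93909680, minus strand) held 1. The NQO1 and SRXN1 windows held none, which says only that these letters are not in those windows.
TXNRD1: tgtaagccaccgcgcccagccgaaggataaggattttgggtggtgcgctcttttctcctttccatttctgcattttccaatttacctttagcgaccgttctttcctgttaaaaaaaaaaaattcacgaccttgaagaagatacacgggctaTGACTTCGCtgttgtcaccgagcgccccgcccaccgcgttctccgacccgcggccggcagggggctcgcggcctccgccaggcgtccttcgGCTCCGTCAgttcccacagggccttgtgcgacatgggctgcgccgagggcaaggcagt
GCLM: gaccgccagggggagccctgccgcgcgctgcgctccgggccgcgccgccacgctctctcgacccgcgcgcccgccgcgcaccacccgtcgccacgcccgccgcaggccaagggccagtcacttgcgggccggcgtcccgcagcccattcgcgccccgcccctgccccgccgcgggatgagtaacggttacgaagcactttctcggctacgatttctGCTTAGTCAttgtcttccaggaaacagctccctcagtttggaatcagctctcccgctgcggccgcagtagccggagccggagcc

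p53 targets were the list with the most calls. Of 37 tested members, 15 were higher in TEPA than in DC and none lower, against 0.587% called higher over all genes, and 35 of the 37 fold changes were above 0, with a median of 0.60. The number called higher was 23 with the replicate block over all libraries, 25 with it in the 6 libraries and 11 without the libraries numbered 2. Over all genes these fits called 372, 210 and 43 higher. Against the control the median was 0.01 in DC and 0.65 in TEPA, with 15 members called higher in TEPA and none in DC, where DC against control had 2 calls in all. The list is part of a choice made with earlier results of these data known.

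Called members included genes of growth arrest and DNA repair. CDKN1A (chr6:36676460-36687339, plus strand), the p21 inhibitor of cyclin-dependent kinases, was at 30.4, 35.7 and 25.4 CPM in DC and 54.6, 81.9 and 66.9 CPM in TEPA. Every TEPA library was above every DC library (log2 fold change 1.15, SE 0.24, adjusted p = 0.0167), and the control at 19.9, 30.3 and 24.5 CPM overlapped the DC libraries. It shares 146 exon bases with DINOL, a noncoding RNA gene on the other strand. BTG2, an antiproliferative gene, was at 18.7, 15.7 and 19.1 CPM in DC and 40.7, 33.1 and 46.2 CPM in TEPA (log2 fold change 1.17, SE 0.15). Of the DNA repair genes, DDB2, which recognises ultraviolet lesions, was at 16.4, 19.5 and 13.5 CPM in DC and 34.4, 46.7 and 43.2 CPM in TEPA (log2 fold change 1.33, SE 0.19, adjusted p = 0.000918). XPC, its partner in lesion recognition (0.40), and POLH, a polymerase that copies past lesions (0.69), were also called higher. Of genes tied to oxidative and nutrient stress, SESN1 (0.80) and TP53I3 (0.83) were called higher, as were AEN (0.60), a nuclease of apoptosis, RPS27L (0.88) and CYFIP2 (0.60), all as log2 fold changes. The p53 half-site was found in 4 of 31 p53 list promoters (FDXR, AEN, PLK2 and RPS27L) and in 5.2% of the promoters of tested genes, searched on both strands by its consensus.

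Of the TNF receptor superfamily genes on the list, FAS, TNFRSF10B and EDA2R were called higher in TEPA. FAS (chr10:88990582-89015785, plus strand), the receptor of FAS ligand, was at 2.36, 1.79 and 2.08 CPM in DC and 6.84, 3.77 and 6.38 CPM in TEPA. TEPA 2 was the lowest of its group and still above every DC library (log2 fold change 1.44, SE 0.24, adjusted p = 0.00289), and the control was at 1.63, 1.88 and 1.94 CPM. TNFRSF10B, the TRAIL receptor DR5, was at 40.2, 48.5 and 42.4 CPM in DC and 79.6, 84.5 and 94.4 CPM in TEPA, with no overlap (log2 fold change 0.98, SE 0.10, adjusted p = 5.75e-05). EDA2R, a receptor of the same superfamily, was at 5.53, 5.19 and 6.86 CPM in DC and 15.7, 11.3 and 16.3 CPM in TEPA (log2 fold change 1.30, SE 0.19). TNFRSF10A, the other TRAIL receptor that signals death, had means of 0.515 CPM in DC and 1.4 CPM in TEPA and was not called (log2 fold change 1.44, adjusted p = 0.0585). Its adjusted p was 0.00925 with the replicate block over all libraries, 0.00904 with GC trends removed, 0.0205 by DESeq2 and 0.0422 without TEPA 1. FAS and TNFRSF10B were the 2 calls among 28 tested genes of death receptors and apoptosis (against 1.26% called over all genes), whose median was -0.01. PHLDA3, an AKT inhibitor, had 2.69, 2.94 and 2.72 CPM in DC and 6.29, 8.2 and 7.95 CPM in TEPA (log2 fold change 1.42, SE 0.25, adjusted p = 0.00608). SPATA18, which acts in mitochondrial quality control, was higher by 1.26 (SE 0.15) and the autophagy gene DRAM1, outside the list, by 1.30 (SE 0.19). MDM2, the p53 ligase and itself a target, was at 195, 184 and 232 CPM in DC and 325, 235 and 335 CPM in TEPA (log2 fold change 0.55, adjusted p = 0.0866). It was called with the replicate block (adjusted p = 0.00186 over all libraries), with GC trends removed (1.19e-06) and without TEPA 2 (0.0154).

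Several p53 list calls changed when 1 library was left out. The call of CDKN1A was lost without DC 1, DC 3, TEPA 2 or TEPA 3 (largest adjusted p = 0.116), that of AEN without 5 of the 6 (all but TEPA 1; largest 0.147), those of XPC and TP53I3 without DC 1, DC 3 or TEPA 3 (largest 0.0953 and 0.101), and that of SESN1 without DC 1, DC 2 or TEPA 3 (largest 0.0652). The others named stayed called in each, PHLDA3 with an adjusted p of up to 0.0451. Without the libraries numbered 2 of both groups the calls of CDKN1A, PHLDA3, XPC, TP53I3 and AEN were lost (adjusted p = 0.101, 0.0647, 0.0593, 0.0594 and 0.165). ACTA2, smooth muscle actin, was higher in TEPA by 1.59 (SE 0.30, adjusted p = 0.01), at 2.66, 3.81 and 2.32 CPM in DC and 6.58, 11.7 and 8.21 CPM in TEPA; leaving out DC 1 or DC 3 ended this call (largest adjusted p = 0.069), as did leaving out both libraries numbered 2 (0.0505). ACTA2 and FAS lie head to head on opposite strands of chromosome 10 and share 380 exon bases, so reads of the pair cannot be told apart where the strand was not used in counting. Library 2 was the lowest of the TEPA libraries for FAS and the highest for ACTA2.

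**Figure D3:**
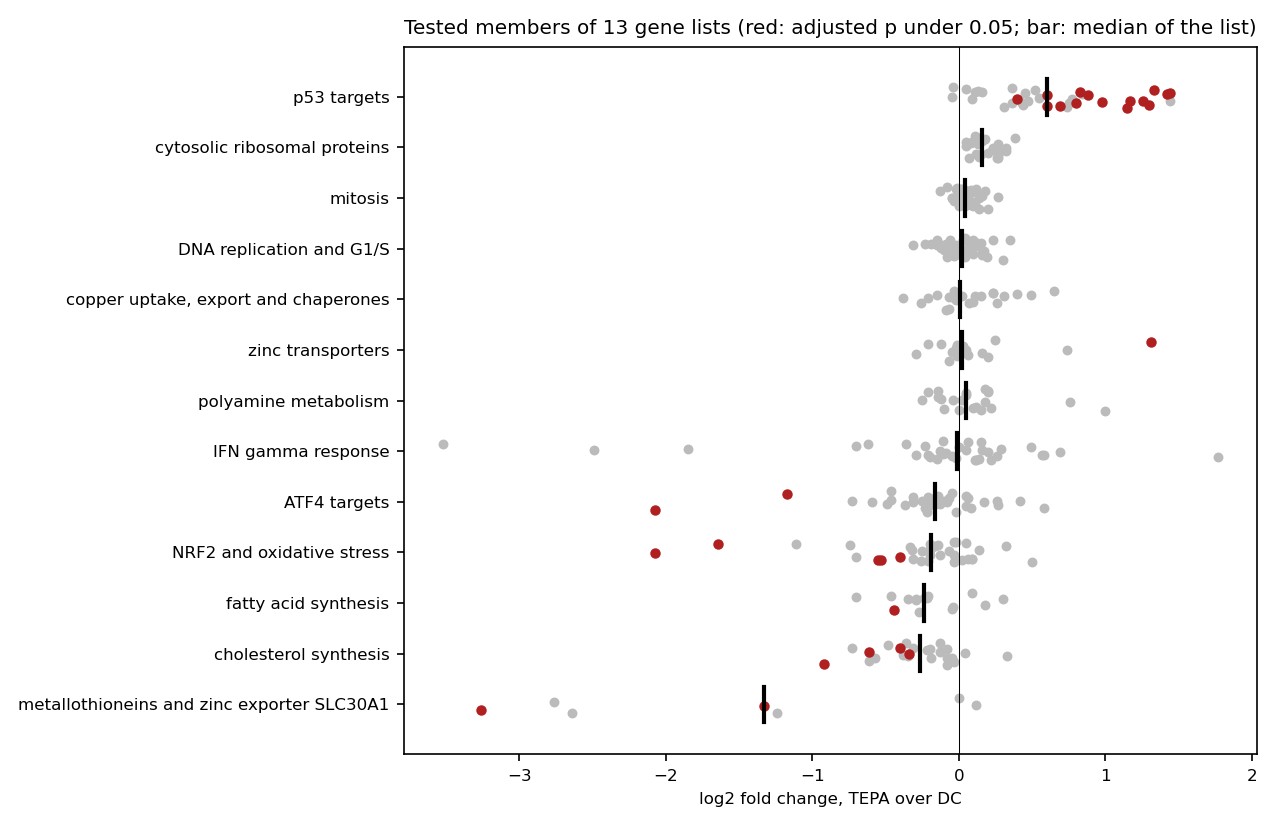
Log2 fold change of TEPA over DC for each tested member of 13 gene lists; red points are called, grey points are not, and the bar is the median of the list. The p53 targets are centred at 0.60, the cholesterol synthesis genes at -0.26, and the DNA replication, mitosis and copper lists near 0.

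A zinc exporter and a zinc importer differed in opposite directions. SLC30A1 (chr1:211571568-211578742, minus strand), which exports zinc across the plasma membrane and is induced by zinc through MTF1, was at 20, 19.4 and 24 CPM in DC and 9.08, 6.18 and 9.92 CPM in TEPA. All TEPA libraries were below all DC libraries (log2 fold change -1.33, SE 0.17, adjusted p = 0.000409), and the control at 24.8, 21.3 and 25.2 CPM was near DC. SLC39A10 (chr2:195575977-195737702, plus strand), a zinc importer, was at 143, 126 and 165 CPM in DC and 399, 285 and 395 CPM in TEPA. The groups did not overlap (log2 fold change 1.31, SE 0.18, adjusted p = 0.000521), and the control was at 161, 136 and 158 CPM. SLC39A10 was the single call among 17 tested zinc transporters other than SLC30A1 (against 1.26% over all genes), whose median was 0.02.

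Metallothioneins, small proteins that hold zinc and copper, were near the limit of detection in these 6 libraries, and their near-identical copies make single members uncertain. With IFN the mean of MT2A was higher, at 4.4 CPM in DC and 2.15 CPM in TEPA. MT1F had 12 counts over the DC libraries and 1 over the TEPA libraries, a ratio of 0.0771 with a 95% counting interval of 0.0018 to 0.521; its adjusted p was 0.0468. MT1X was at 0.436, 0.404 and 0.269 CPM in DC and 0.147, 0.0265 and 0 CPM in TEPA (adjusted p = 0.246, and 0.0351 with the replicate block over all libraries), and MT2A at 0.291, 0.346 and 0.235 CPM in DC and 0.147, 0.106 and 0.116 CPM in TEPA (adjusted p = 0.688). Of 12 listed genes of this group 7 were tested, with 2 called lower (MT1F and SLC30A1), against 0.676% over all genes. The median over those 7 was -1.33, which is the value of SLC30A1 itself. In the 6 libraries MT1M had 0 counts, MT1E 2, MT1F 13, and MT1X and MT2A 39 each. The median therefore says little about the metallothioneins. The MT1F call was lost without DC 1, DC 2, DC 3, TEPA 1 or TEPA 3 (largest adjusted p = 0.25), without both libraries numbered 2 (0.0763), with no filter (0.0747), by DESeq2 (0.126) and by limma-voom (0.0869).

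The SLC30A1 promoter is printed with the metal response element, to which MTF1 binds. Its core was searched as TGCNCNC on both strands; 63.4% of the 10804 promoters of tested genes held it, as did all 4 members of the metallothionein list with a promoter (MT1X, MT2A, SLC30A1 and MTF1). SLC30A1 (chr1:211579112-211579411, minus strand) held 2 matches, in capitals, both read on the strand opposite to the gene. The SLC39A10 window (chr2:195656708-195657007) held none. It lies inside the span given above for that gene and not at its start, and the SLC30A1 window lies outside the span given for SLC30A1.
SLC30A1: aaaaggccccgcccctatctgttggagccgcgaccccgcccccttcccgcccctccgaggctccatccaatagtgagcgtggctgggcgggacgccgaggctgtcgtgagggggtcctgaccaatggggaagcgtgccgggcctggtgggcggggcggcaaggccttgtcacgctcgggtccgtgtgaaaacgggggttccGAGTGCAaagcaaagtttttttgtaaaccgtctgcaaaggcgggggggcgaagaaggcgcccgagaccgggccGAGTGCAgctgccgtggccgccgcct

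Copper handling itself showed no call in the main edgeR fit. Of 24 tested genes of copper uptake, export and chaperones none passed the edgeR test; an unadjusted p under 0.05 was found for 5, limma-voom called 0 and DESeq2 called 2 (COMMD1 and LIAS), and the median was 0.00. SLC31A1, the main copper importer, was at 112, 107 and 118 CPM in DC and 147, 116 and 141 CPM in TEPA, where TEPA 2 lay within the DC range (log2 fold change 0.26, SE 0.09, 95% interval 0.07 to 0.46, adjusted p = 0.244; 0.0197 with the replicate block over all libraries). ATP7A, the copper-exporting ATPase, was at 261, 228 and 284 CPM in DC and 423, 277 and 388 CPM in TEPA, where TEPA 2 again lay within the DC range (log2 fold change 0.49, adjusted p = 0.209; 0.00847 with that block). Of the other 3, LIAS, the lipoyl synthase, had a log2 fold change of 0.40 (adjusted p = 0.122) and LOXL2, a copper-dependent lysyl oxidase, one of 0.65 (adjusted p = 0.324), while COMMD1, which acts in trafficking of copper transporters, had one of -0.38 (adjusted p = 0.0912). All 5 were called with the replicate block over all libraries (adjusted p = 0.0247, 0.0226 and 0.0439 for LIAS, LOXL2 and COMMD1), as the only members of the list that were; with the block in the 6 libraries ATP7A was the single call (0.014). Without TEPA 2 SLC31A1 (0.0323) and ATP7A (0.0405) were called. With GC trends removed 4 members were called higher, among them ATP7A (1.86e-05) and SLC31A1 (0.000184), and 2 lower. Over all genes that fit called 677 higher and 737 lower. In the list of cytochrome c oxidase and its copper assembly 1 of 27 genes was called (against 1.26% over all genes), COX15, which makes haem A for the enzyme: 121, 119 and 126 CPM in DC and 159, 149 and 163 CPM in TEPA (log2 fold change 0.36, SE 0.07, adjusted p = 0.0101). Its groups did not overlap, and the control at 123, 126 and 124 CPM was with DC.

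Iron genes gave 1 call in each direction among 23 tested, with a median of -0.07. Over all genes 0.587% were called higher and 0.676% lower. FTH1 was the one lower. BMP6, a ligand of iron homeostasis, was higher in TEPA at a very low level, 0.109, 0.0288 and 0.134 CPM in DC and 0.331, 0.478 and 0.493 CPM in TEPA (log2 fold change 2.26, SE 0.43, adjusted p = 0.0103), a call lost without DC 2 (adjusted p = 0.0569) without both libraries numbered 2 (0.136) and with the replicate block in the 6 libraries (0.0595). The transferrin receptor TFRC, which brings iron into the cell, was at 525, 473 and 589 CPM in DC and 750, 554 and 760 CPM in TEPA, so that TEPA 2 fell within the DC range (log2 fold change 0.38, adjusted p = 0.405). Its adjusted p was 0.0252 with the replicate block over all libraries and 0.000153 with GC trends removed.

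TEPA being a polyamine, the genes of polyamine metabolism were listed too: none of 21 passed the edgeR test, while SAT1 and ODC1 had an unadjusted p under 0.05. By DESeq2 SAT1 was the 1 call, and limma-voom made 0. SAT1, which acetylates polyamines for export, was at 3.35, 2.85 and 3.83 CPM in DC and 6.65, 4.67 and 5.63 CPM in TEPA. Its groups did not overlap, yet the adjusted p of 0.0542 missed the threshold (log2 fold change 0.76, SE 0.19). The adjusted p was 0.0132 with the replicate block over all libraries, 0.00169 with GC trends removed and 0.0269 without TEPA 2. ODC1, which starts polyamine synthesis, had a log2 fold change of 0.12 (95% interval 0.01 to 0.24, adjusted p = 0.446).

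Part of the sterol synthesis genes were lower in TEPA. Of 24 tested members of the cholesterol list 4 were called lower (against 0.676% over all genes) and none higher, 22 of the 24 fold changes were below 0 and the median was -0.26. With the replicate block over all libraries 10 were called lower, and without the libraries numbered 2 the number was 2. Over all genes these fits called 400 and 34 lower. INSIG1, a feedback protein that retains SREBP, was at 57.1, 39.2 and 68.7 CPM in DC and 31.9, 23.4 and 32.1 CPM in TEPA (log2 fold change -0.92, SE 0.21, adjusted p = 0.0318). Library 2 of each group was the lowest for INSIG1, and the groups did not overlap. FDFT1, the squalene synthase (-0.40), and ACAT2, which makes acetoacetyl-CoA (-0.34), were also called lower; ACAT2 overlaps SOD2 by 1141 exon bases on the other strand. SCD, the stearoyl-CoA desaturase and the single call of 15 tested fatty acid synthesis genes, was at 786, 712 and 841 CPM in DC and 589, 547 and 584 CPM in TEPA (log2 fold change -0.44, SE 0.07, adjusted p = 0.00195), with the control at 801, 734 and 809 CPM. The fatty acid list had a median of -0.24, and 7 members were called lower with the replicate block over all libraries, beside 400 over all genes. In the SREBP search for TCACNCCAC, 1.1% of promoters of tested genes and 1 of 18 members of the cholesterol list (SREBF2) held the letters. The calls of INSIG1 (all but without DC 2) and ACAT2 (all but without TEPA 2) were each lost in 5 of the 6 fits without 1 library (largest adjusted p 0.132 and 0.114), that of FDFT1 without DC 1 (0.0546), and that of SCD in none. Without both libraries numbered 2 the calls of FDFT1 (0.0505) and ACAT2 (0.122) were lost, and that of ACAT2 also with no filter (0.0779).

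**Figure D4:**
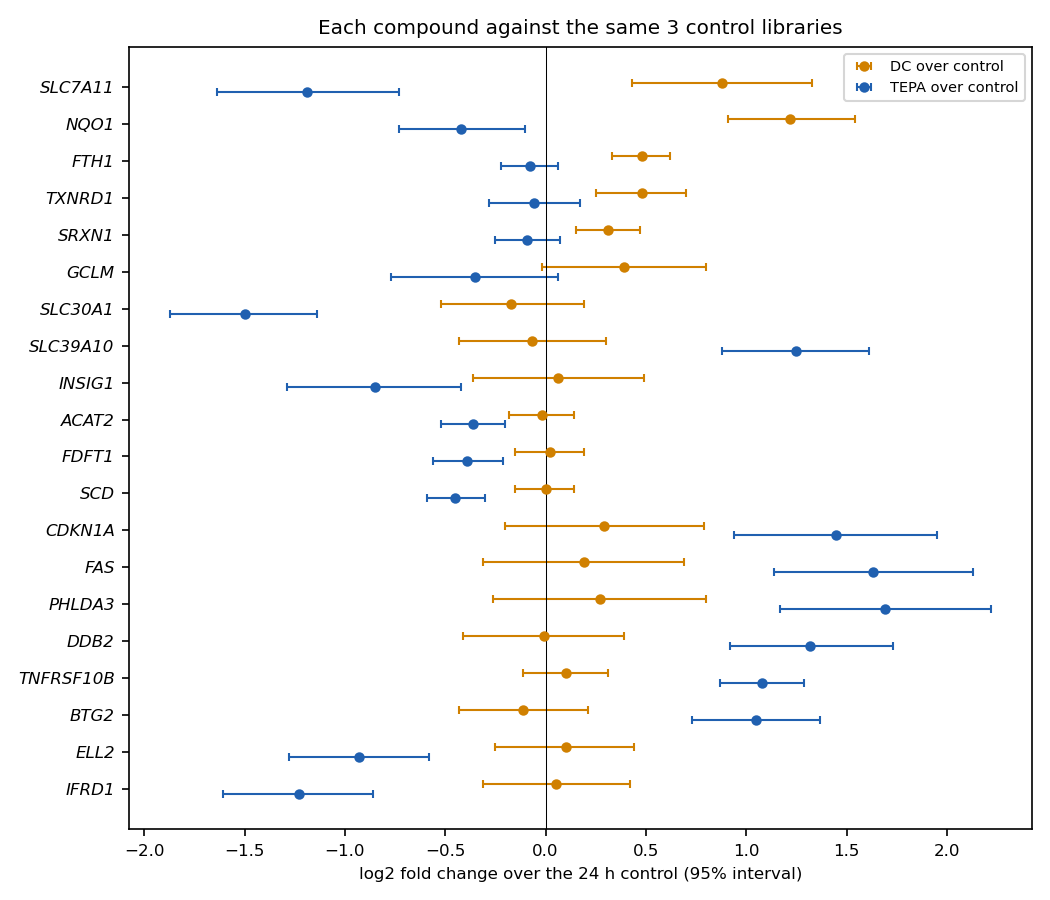
Log2 fold change of DC (orange) and of TEPA (blue) over the same 3 control libraries, with 95% intervals from the fit, for 20 genes. The intervals are for single genes, without adjustment over all genes. After adjustment DC against control was called only for NQO1 and FTH1, and NQO1 was not called in TEPA against control. For FTH1, TXNRD1 and SRXN1 the DC intervals exclude 0 and the TEPA intervals do not; for NQO1 and SLC7A11 both do, on opposite sides; and for SLC30A1, SLC39A10, SCD, the p53 targets, ELL2 and IFRD1 only the TEPA intervals do.

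Other stress lists held few calls. Of 34 tested ATF4 targets, genes of the amino acid and integrated stress response, 2 were called lower in TEPA (against 0.676% over all genes): SLC7A11 and DDIT3, the death-associated factor CHOP. DDIT3 was at 8.91, 7.5 and 5.55 CPM in DC and 3.42, 4.06 and 2.23 CPM in TEPA (log2 fold change -1.17, SE 0.29, adjusted p = 0.0478), a call lost in 5 of the 6 fits without 1 library (all but TEPA 2; largest adjusted p = 0.255), without both libraries numbered 2 (0.114), with no filter (0.0598) and by limma-voom (0.16). DDIT3 also shares 355 exon bases with MARS on the other strand. The list median was -0.16. ATF3 was at 11.5, 9.57 and 8.04 CPM in DC and 6.36, 6.34 and 4.79 CPM in TEPA, not called (adjusted p = 0.117); it was called with the replicate block (0.000129 over all libraries), with GC trends removed (0.036) and by DESeq2 (0.0343). None of 23 ER chaperone genes, 24 heat shock chaperone genes and 33 hypoxia and glycolysis genes passed the edgeR test; an unadjusted p under 0.05 was found for 4, 2 and 0 of them, and by DESeq2 and limma-voom 0 were called.

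No call fell on the cell cycle lists. Of 35 mitosis genes and 44 DNA replication genes none passed the edgeR test; an unadjusted p under 0.05 was found for 2 in each list (KIF2C and NUSAP1; UNG and CCNE1), limma-voom called 0 and DESeq2 called 1 (UNG), and the medians were 0.04 and 0.02. All 30 cytosolic ribosomal protein genes tested had a fold change above 0, with a median of 0.15 and no call (1 at an unadjusted p under 0.05, 0 by DESeq2 or limma-voom); the median ran from 0.01 to 0.24 over the alternatives, and processed pseudogenes of these genes make their counts uncertain. The autophagy (31 tested), respiratory chain (30), mesenchymal identity (20) and catecholamine (20) lists had no edgeR call either; an unadjusted p under 0.05 was found for 3, 0, 3 and 4, by DESeq2 there were 0, 0, 1 (SNAI2) and 1 (SCG2) calls and by limma-voom 0. Without IFN in the medium, none of 34 IFN gamma response genes and 21 MHC class I genes was called (0 and 1 at an unadjusted p under 0.05, none by DESeq2 or limma-voom). CD274, which encodes PD-L1, was at 1.35, 1.47 and 2.05 CPM in DC and 1.84, 1.11 and 1.54 CPM in TEPA, fully overlapping (log2 fold change -0.13, SE 0.33, 95% interval -0.82 to 0.57). FGL1, which encodes a LAG3 ligand, was the single call of 11 tested checkpoint and NK cell ligands (against 1.26% over all genes), at 2.29, 2.16 and 2.86 CPM in DC and 5.92, 3.98 and 6.73 CPM in TEPA (log2 fold change 1.18, SE 0.20, adjusted p = 0.00421).

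Of the neural genes, RET, the receptor of the GDNF family, was at 295, 263 and 272 CPM in DC and 396, 367 and 365 CPM in TEPA. Every TEPA library was above every DC library (log2 fold change 0.44, SE 0.08, adjusted p = 0.0101), and the control was at 312, 274 and 298 CPM. The 28 tested adrenergic identity genes had a median of 0.03. RET lost its call without DC 3 or TEPA 1 (largest adjusted p = 0.0592), without both libraries numbered 2 (0.0941) and with GC trends removed (0.067). GBX2, a homeobox factor, was at 2.26, 1.96 and 2.56 CPM in DC and 6.62, 4.75 and 4.81 CPM in TEPA (log2 fold change 1.25, SE 0.17), a call lost with GC trends removed (adjusted p = 0.1). SCN4B, a sodium channel subunit, was at 0.837, 1.53 and 1.71 CPM in DC and 3.82, 3.58 and 4.93 CPM in TEPA (log2 fold change 1.59, SE 0.29), lost without DC 1 (adjusted p = 0.0577).

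Of 43 tested axon, synapse and ion channel genes, SCN4B was called higher and ANOS1 and ANO4 lower, with a median of -0.11. Over all genes 1.26% were called. IFRD1, a transcriptional co-regulator, was at 103, 83.4 and 99.3 CPM in DC and 42.9, 32 and 42.3 CPM in TEPA (log2 fold change -1.29, SE 0.18, adjusted p = 0.000561), and ELL2, an elongation factor, at 13.2, 11.1 and 14.6 CPM in DC and 6.43, 6.37 and 6.21 CPM in TEPA (-1.03, SE 0.17). Both stayed called without any single library. The extracellular protein ANOS1 (-1.26), the protocadherin PCDH15 (-1.17), PHLDA1 (-1.10), CHN2, a Rac GTPase-activating protein (-1.04), ANO4 (-1), the diacylglycerol kinase DGKB (-0.93) and the synaptotagmin SYT9 (-0.93) were also called lower. ANOS1 lost its call without DC 1, DC 3, TEPA 2 or TEPA 3 (largest adjusted p = 0.076), PCDH15 without DC 1, TEPA 1 or TEPA 2 (0.0874), and PHLDA1, CHN2, ANO4, DGKB and SYT9 each in 5 of the 6 such fits (largest 0.164, 0.101, 0.0994, 0.12 and 0.16), kept only without TEPA 2 (PHLDA1 and ANO4), TEPA 3 (CHN2) or DC 2 (DGKB and SYT9). These 5 and PCDH15 were also lost without both libraries numbered 2 (0.0568 to 0.194), CHN2 (0.056) and DGKB (0.0521) with no filter, and ANO4 by limma-voom (0.109). With the replicate block in the 6 libraries ANO4 (0.104) and PCDH15 (0.0572) lost their calls. TIMP2, an inhibitor of matrix proteases, was the second call of 25 matrix genes beside ACTA2, higher by 0.24 (adjusted p = 0.0356), and it too was lost in 5 of the 6 (all but TEPA 2; largest 0.0825), without both libraries numbered 2 (0.124), with no filter (0.0861), with the replicate block in the 6 libraries (0.0602) and with GC trends removed (0.407).

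TEPA and DC were also compared with IFN present, in 6 other libraries. Their group means do not enter the fold changes without IFN. Both comparisons came from the same fit and share its estimate of the spread, so their calls are not independent. There 398 genes were called (2.72%), 158 higher and 240 lower. Of the 185 genes called without IFN, 182 had the same direction with IFN (98.4%, beside 74.3% of all genes tested), and 129 were also called with IFN, which is 69.7% of the 185 and 32.4% of the 398. The 3 in the opposite direction were ANOS1, DDIT3 and ZBTB2, and none of these was called there. The median size of the 185 log2 fold changes was 0.615 without IFN and, counted in the direction without IFN, 0.558 with IFN. NQO1 was at 199, 190 and 183 CPM in DC with IFN and 55.4, 50.6 and 67.2 CPM in TEPA with IFN (log2 fold change -1.72, adjusted p = 1.25e-05). SLC30A1 was at 25.7, 25.7 and 22.8 CPM against 8.62, 7.21 and 7.41 CPM (-1.67, adjusted p = 2.65e-05). The p53 list had 14 members called higher with IFN, and its median was 0.54; for cholesterol synthesis 9 were called lower, with a median of -0.37.

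**Figure D5:**
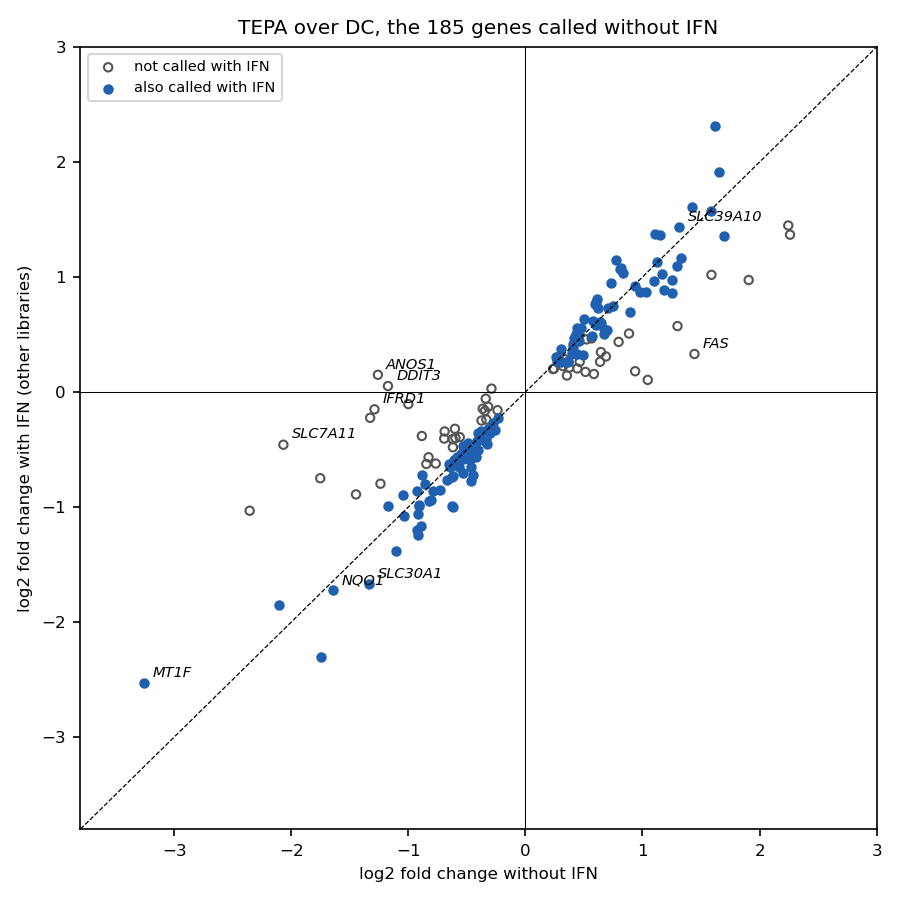
Log2 fold change of TEPA over DC with IFN (vertical) against that without IFN (horizontal) for the 185 genes called without IFN; filled points are the 129 also called with IFN, and the dashed line marks equal values. SLC7A11, IFRD1, FAS and ANOS1 lie toward 0 on the vertical axis.

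SLC7A11 was the gene with the smallest p for a difference between the comparisons without and with IFN. With IFN it was at 43.1, 46.5 and 35.3 CPM in DC and 31.2, 33.7 and 26 CPM in TEPA, a log2 fold change of -0.46 (adjusted p = 0.357) beside -2.07 without. The TEPA libraries with IFN were all above the TEPA libraries without IFN. The difference of the 2 fold changes was -1.61 (SE 0.30, unadjusted p = 4.2e-05, adjusted p = 0.615). Over all genes 0 (0%) passed for this difference in edgeR, 199 had an unadjusted p under 0.05, DESeq2 called 1 (SLC7A11, adjusted p = 0.00337) and limma-voom 0. With the replicate block over all libraries 4 were called (SLC7A11, IFRD1, ATF3 and ATF4), and with GC trends removed 5, among them SLC7A11, IFRD1, RGS4 and ADD3. For SLC7A11 the adjusted p of the difference ranged from 3.04e-05 (GC trends removed with the replicate block) to 1 (without DC 1 or TEPA 3). IFRD1 went from -1.29 without IFN to -0.15 with IFN, where it was at 121, 106 and 91.4 CPM in DC and 110, 94.7 and 81.7 CPM in TEPA. FAS went from 1.44 to 0.33: with IFN it was at 15.4, 14.4 and 11.6 CPM in DC and 18.6, 17.5 and 16 CPM in TEPA, all far above the libraries without IFN, and the difference of its fold changes (1.11) had an adjusted p of 1 in edgeR and of 0.82 by DESeq2. Genes named here after their values were seen are the copper genes other than SLC31A1, ATF3, ATF4, ADD3, RGS4, ZBTB2, KIF2C, NUSAP1, UNG, CCNE1, SNAI2, SCG2 and, among p53 targets, XPC, SESN1, TP53I3, AEN, RPS27L, POLH, CYFIP2, MDM2 and TNFRSF10A.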

How the data were processed

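RNA of the SH-SY5Y cells was extracted with a column kit and made into stranded mRNA libraries, per the labels' protocols. The authors deposited whole-number counts per gene for 26485 genes, without normalization; STAR 2.5a and RSEM 1.2.31 with build hg38 are named in the submitters' processing notes, and the annotation release, the strand setting and filters are not given in the sources used here. Symbols were matched to GENCODE 29 for positions, GC content and exon overlaps (90.3% of symbols).

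Genes were kept by filterByExpr of edgeR 4.0.16 (minimum count of 10; R 4.3.3), which left 14654, with TMM normalization of totals. A quasi-likelihood model with 1 mean per group was fitted to all 24 libraries (16 residual degrees of freedom, common biological coefficient of variation 0.207), contrasts were tested and p-values were adjusted by Benjamini and Hochberg over all genes tested; a gene is called under 0.05. The method was tested on simulated data for TEPA against DC without IFN over 14491 genes: 57% of genes changed by 1 on the log2 scale and 85.9% of those changed by 2 were recovered, with 5 false calls. The simulated counts were drawn for each gene separately. They held no deviation shared across genes, such as that of the libraries numbered 2, so these figures do not cover it. No 2 libraries of a group agreed within counting noise. Intervals of count ratios cover counting error only.

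Between TEPA and DC libraries of the same number, deviations from the group means correlated across genes at 0.12, 0.76 and 0.52. All were over 0.1, the rule set for pairing. TEPA 1 with DC 3 (0.59) and TEPA 3 with DC 1 (0.104) also passed it. Library 2 of each group correlated positively only with library 2 of the other. Pairing of the libraries numbered 1 and 3 is thus not shown, and the labels do not state any pairing.

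Alternatives were the contrast's libraries alone, the replicate number as a block, removal of each library's trend over GC content (lowess), DESeq2 1.42.0, its size factors in edgeR, limma-voom (limma 3.58.1), no filter, a mean of 1 CPM as the filter, and leaving out each library. Over all libraries the block gave each replicate number an effect shared by all groups of its time point. Its adjusted p-values therefore rest on a pairing that the groups with IFN did not show. Leaving out both libraries numbered 2, and GC removal in the 6 libraries, were chosen after seeing the data.

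The members, gene lists and named genes were chosen with earlier results of these data known. Genes named are the 12 largest rises and 12 largest falls among the calls (mean level not under 1 CPM, plain symbol, no overlap between groups), up to 5 called members of each list or its 2 most abundant members where none is called, and a fixed set; exceptions are stated. Abundant members of lists without a call are not all printed. Some genes that the rule names are not reported here.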

Additional observations from a re-analysis of the deposited data

How the results depend on the processing

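Of the 185 genes called for TEPA against DC without IFN, every one tested kept its direction under each alternative run (185 tested in most, 183 in fits of the 6 libraries alone and 174 above 1 CPM). The number of calls moved with the processing, and the cause was not tested. For TEPA against DC without IFN it was 2 in the 6 libraries alone, 406 there with the replicate block, 772 with the replicate block over all libraries, 1414 with GC trends removed, 2118 with both, 460 with GC trends removed in the 6 libraries alone, 434 by DESeq2, 123 with no filter, 77 without the libraries numbered 2, and 75 to 207 when 1 library was left out. With IFN, whose numbers did not pair (r of 0.24, -0.15 and -0.15), it was 713 in its 6 libraries, 246 there with the block, 1556 with the block over all libraries, 2018 with GC trends removed, 3029 with both, 731 by DESeq2, 265 with no filter and 181 to 373 without 1 library. For the difference between the 2 comparisons it was 1 in its own libraries with the block, 4 with the block over all, 5 with GC trends removed, 15 with both and 1 by DESeq2. DC against control gave 1 in its 6 libraries, 6 there with the block, 4, 7 and 9 with the block, GC removal and both over all libraries. TEPA against control gave 0, 247, 857, 1269 and 2088 in the same order, 374 by DESeq2, 86 with no filter and 61 to 127 without 1 library. When 1 library was left out, 15 of 33 list medians (log2) took both signs, among them cystine import and glutathione (-0.10 to 0.03), immediate early genes (-0.16 to 0.22), checkpoint ligands (-0.14 to 0.06) polyamine metabolism (-0.14 to 0.14), hypoxia (-0.19 to 0.09), neuroblastoma markers (-0.03 to 0.10) and matrix genes (-0.24 to 0.11), as did the uncalled HMOX1 (-0.66 to 0.10) and CD274 (-0.28 to 0.06). Of the alternatives for genes named, 180 ended a call and 63 made one. Low counts limit the metallothioneins, BMP6 and HMOX1.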
